A study of Mus musculus with 12 samples.

Results

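Kidneys of mice given cisplatin and umbilical cord mesenchymal stem cells were compared with kidneys of mice given cisplatin alone, by RNA sequencing of bulk tissue. The comparison takes in 8 of the 12 samples of the study, 4 labelled cisplatin (AKI) and 4 labelled cisplatin with cells from umbilical cord (UC), and every gene of the deposited raw count table that passed a filter on low counts. All mice were wild-type C57BL/6, and both groups carry the cisplatin injury, so no uninjured kidney enters the comparison. The remaining 4 samples had the cells together with pulsed focused ultrasound and entered the filter on low counts, the scaling and the estimate of the spread between replicates, but not the contrast. Cell dose, the species of the cord cells, the time of sampling and the age of the mice are unstated in the sources used here. The labels do not say that samples are separate animals, so p-values measure the spread between these samples, which may be technical. The AKI samples carry codes that begin with KR and the UC samples codes that begin with K alone, so whatever the code type stands for and the treatment cannot be told apart.

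Cisplatin enters the kidney tubule through transporters of the basolateral membrane, binds DNA and other targets, and injures the proximal tubule first. Injured tubule cells lose their transport programme, switch on repair genes such as those for osteopontin and keratins, and signal to the endothelium, fibroblasts and immune cells around them. Mesenchymal stem cells are stromal cells that release growth factors, vesicles and immune regulators and are studied as a treatment for such injury. Apart from the tubule, a kidney sample holds glomeruli (podocytes, mesangial cells and fenestrated endothelium), vessels, interstitial fibroblasts and immune cells, and in bulk RNA fewer cells of a type and less RNA per cell cannot be told apart.

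The 8 libraries held 17326425 to 23500843 counts in AKI and 18424472 to 21292953 counts in UC. Levels are given as CPM, a gene's count relative to its library's total, after scaling of the libraries by edgeR's TMM method, always in the order of replicates 1, 2, 3 and 4, and differences as log2 fold changes of UC against AKI with a standard error (SE) and an adjusted p from edgeR's quasi-likelihood test (Benjamini-Hochberg over all tested genes, threshold 0.05). Across genes, which are not independent replicates, log2 CPM correlated at 0.967 to 0.981 within AKI, at 0.961 to 0.971 within UC and at 0.90 to 0.960 between the groups. Among the UC libraries, replicate 4 lay nearest to AKI (0.944 to 0.960). Genes of the mitochondrial genome took 5.0 ± 1.88% of counts in AKI and 14.2 ± 5.17% in UC (SD, n = 4 each), with UC replicates 1 and 2 at 18.6% and 18.6% and UC replicates 3 and 4 at 11.1% and 8.57%. The groups did not overlap, but the exact permutation p of 0.0286, the smallest that 4 against 4 samples allow, came to 0.05 after adjustment over 7 library measures and was not below the threshold. In all 8 libraries Xist, the RNA that silences an X chromosome in female cells, was at 132 unscaled CPM or more, and the Y-linked genes Ddx3y, Kdm5d and Uty were at 0 counts, which allows up to 0.173 CPM in the smallest library. Eif2s3y, also Y-linked, had 2 counts in AKI replicate 1 and 0 in the other libraries.

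Of 16947 tested genes, 8210 differed between the groups (48.4%), 4085 being higher in UC (24.1%) and 4125 lower (24.3%). A difference of 2-fold or more was found for 3349 genes (19.8%), 1876 higher and 1473 lower, and one of 8-fold or more for 106 genes. The UC libraries lay wholly above the AKI libraries for 3466 genes (20.5%) and wholly below them for 3606 (21.3%). With this background a single call says little, so the gene groups below are described by the share of their members that passed, beside those shares of all genes. Lists in which most tested members were lower in UC included those of podocytes, endothelium, mural cells, fibroblasts, the first proximal tubule segments, and TGF-beta and Hippo signalling. Lists in which most tested members were higher in UC included those of both ribosomes, the respiratory chain, RNA polymerase II, the core spliceosome, small nucleolar RNA host genes and the urothelium.

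**Figure D1:**
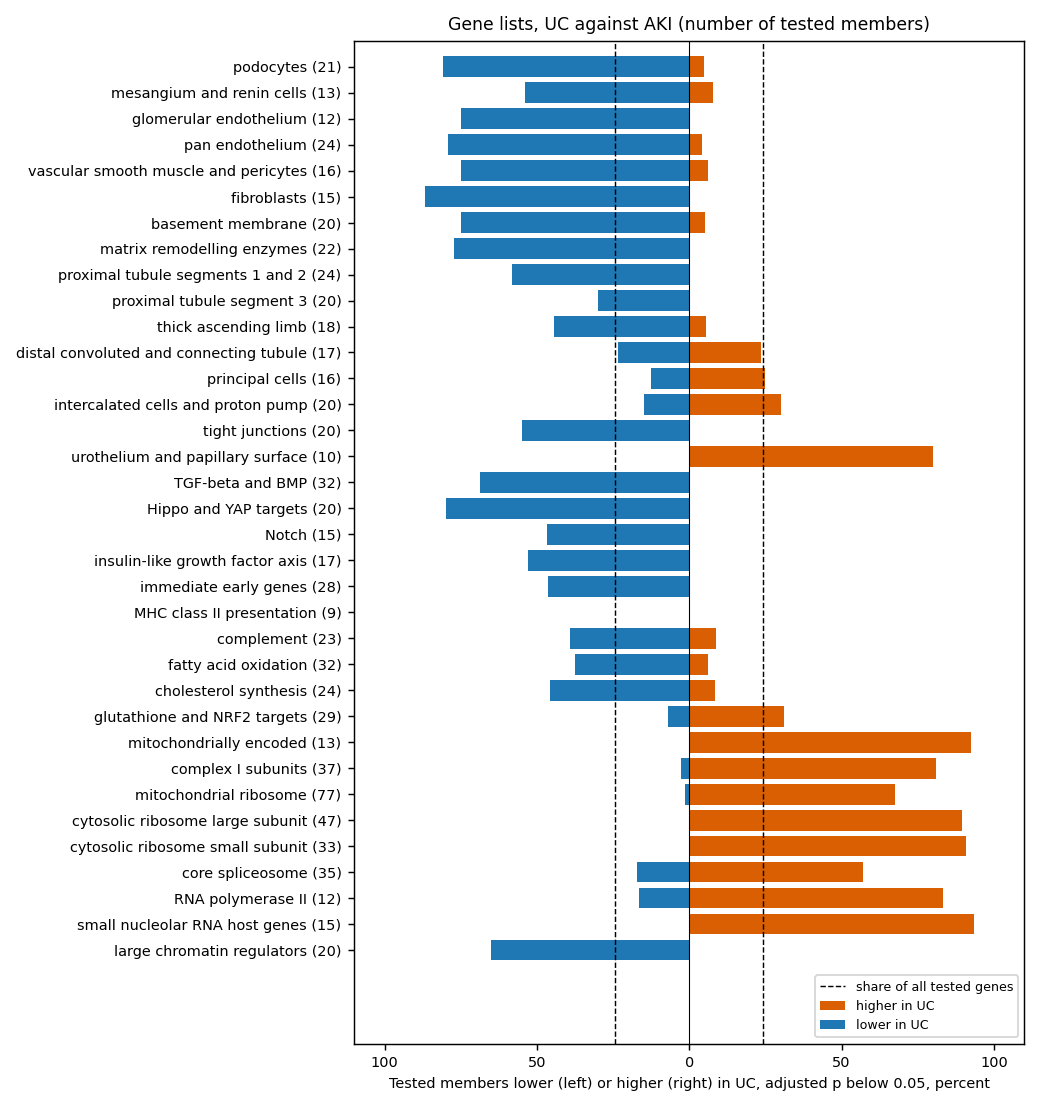
Share of each list's tested members (number in parentheses) that passed the test and were lower (left, blue) or higher (right, orange) in UC, in percent, for 35 of 74 lists, drawn after their values were seen. Dashed lines mark the shares over all tested genes, 24.3% lower and 24.1% higher. The stromal and vascular lists extend to the left and the ribosomal and respiratory lists to the right, while the distal tubule lists extend to both sides, to about the dashed lines or short of them on the left.

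Of 24 genes of the first proximal tubule segments, which take back most filtered sodium, glucose, amino acids and phosphate, 14 were lower in UC and none was higher (median log2 fold change -0.65, against 0.03 over all tested genes). Slc3a1, the heavy subunit of the cystine transporter, was at 483, 501, 555 and 593 CPM in AKI and 127, 126, 119 and 174 CPM in UC (log2 fold change -1.96, SE 0.20, adjusted p = 3.27e-05). The AKI libraries lay close together and far above the UC libraries, of which replicate 4 was the highest. By contrast the sodium-phosphate cotransporter Slc34a1, the most abundant gene of the list, overlapped between the groups, at 3977, 3512, 6711 and 4454 CPM and 4833, 5224, 2925 and 4455 CPM (adjusted p = 0.744). Of 20 genes of the last proximal segment, 6 were lower in UC, a share near the 24.3% of all genes, and none was higher (median -0.23). Slc7a12, an amino acid transporter of that segment in mice, was the member with the smallest p, at 202, 90.5, 153 and 143 CPM in AKI and 39.4, 48.3, 48.8 and 50.9 CPM in UC (log2 fold change -1.65, SE 0.26, adjusted p = 2.54e-04).

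In the thick ascending limb, which reabsorbs salt without water, 8 of 18 genes were lower and 1 was higher (median -0.52). Over all genes 24.3% were lower and 24.1% higher. Umod encodes uromodulin, the most abundant urinary protein. Its level was 2783, 2523, 4214 and 4019.9 CPM in AKI and 449, 422, 964 and 1698 CPM in UC (log2 fold change -1.94, SE 0.42, adjusted p = 0.00219), with UC replicates 1 and 2 the lowest. Egf, whose kidney source is the distal nephron, followed the same order of groups with 1352, 1235, 1532 and 1678 CPM in AKI and 228, 452, 282 and 620.0 CPM in UC (log2 fold change -1.87, SE 0.30, adjusted p = 2.66e-04). The calcium-sensing receptor gene Casr had 43.3, 32.1, 53 and 65.6 CPM in AKI and 5.98, 6.57, 8.23 and 13.7 CPM in UC (log2 fold change -2.49, SE 0.27, adjusted p = 3.85e-05). Without UC replicates 1 and 2, 5 of the 18 genes were lower and 2 higher.

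Further along, the distal convoluted and connecting tubule had 4 of 17 genes higher and 4 lower, close to the shares over all genes. The higher genes included S100g, the calcium carrier calbindin-D9k, at 112, 187, 95.2 and 203 CPM in AKI and 466, 683, 319 and 587 CPM in UC (log2 fold change 1.78, SE 0.31, adjusted p = 5.49e-04). The lower genes included the calcium pump Atp2b4, at 17.8, 20.2, 27.2 and 25.5 CPM and 8.66, 11.1, 7.97 and 14 CPM (log2 fold change -1.12, SE 0.19, adjusted p = 4.71e-04). Without UC replicates 1 and 2 only 1 gene of this list was higher. Of 16 principal cell genes, which serve water and sodium uptake in the collecting duct, 4 were higher and 2 lower, shares near or below those over all genes. Fxyd4, a modulator of the sodium pump in the collecting duct, was at 27.5, 23.9, 32.3 and 28.1 CPM in AKI and 98.6, 89, 117 and 83.2 CPM in UC (log2 fold change 1.79, SE 0.20, adjusted p = 3.85e-05), with a wide gap between the groups. The water channel Aqp2 overlapped, since UC replicate 2 stood below most AKI libraries (578, 796, 1009 and 845 CPM against 1659, 604, 2505 and 1232 CPM, log2 fold change 0.89, adjusted p = 0.0412), and its call was lost without AKI replicate 1, 2 or 4 or UC replicate 1 or 3 (adjusted p 0.0742 to 0.165). Scnn1b, the beta subunit of the epithelial sodium channel, rose slightly from 49.8 ± 5.67 to 72.5 ± 17.6 CPM (SD, n = 4 each; adjusted p = 0.00972).

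Intercalated cells, which secrete acid or base with a vacuolar proton pump, gave 6 genes higher and 3 lower of 20, against 24.1% and 24.3% of all genes. The pump's own kidney subunits went in both directions. Atp6v0a4, the large membrane subunit, fell from 223, 318, 241 and 281 CPM to 107, 106, 88.1 and 136 CPM (log2 fold change -1.28, SE 0.16, adjusted p = 7.66e-05). Atp6v1g3, a small peripheral subunit, rose from 39.7, 28, 30.6 and 30.5 CPM to 104, 63.6, 60.1 and 67.4 CPM (log2 fold change 1.19, SE 0.19, adjusted p = 2.77e-04). Carbonic anhydrase 2 (Car2), the most abundant gene of the list, overlapped between the groups at 448 ± 47.4 and 389.5 ± 77.8 CPM (adjusted p = 0.257). Tight junction genes, which seal all these epithelia, showed 11 of 20 lower and none higher, of which 6 were left without AKI replicate 4 and 7 without UC replicate 1. The scaffold Tjp1 (ZO-1) was at 66.5, 81.9, 61.9 and 64.2 CPM in AKI and 27.5, 32.5, 42.2 and 33.1 CPM in UC (log2 fold change -1.02, SE 0.15, adjusted p = 1.45e-04). The polarity gene Pard6b was at 84.4 ± 3.46 and 41.3 ± 5.39 CPM (adjusted p = 8.85e-05).

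Genes of the urothelium, the lining of the pelvis and papilla, were the only epithelial list described here with most members higher: 8 of 10 passed and none was lower (median 1.22). Leaving out single libraries brought the 8 to between 3 (without UC replicate 3) and 4 or 5 (without AKI replicate 1 or 4). Keratin 19 (Krt19) was at 8.85, 9.97, 11.2 and 8.90 CPM in AKI and 17.3, 20.3, 42.8 and 12.3 CPM in UC (log2 fold change 1.25, SE 0.30, adjusted p = 0.00404). Uroplakin Upk3a, a plaque protein of the bladder-type surface, read 3.13, 6.28, 6.03 and 3.89 CPM and 10.5, 7.80, 25.4 and 8.56 CPM (log2 fold change 1.44, SE 0.35, adjusted p = 0.00471). UC replicate 3 was the highest for both. The list's summed level was 161 to 215 CPM in AKI and 240.1 to 407 CPM in UC, without overlap. How much pelvis each piece of kidney held was not measured, and its part in these values was not tested.

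**Figure D2:**
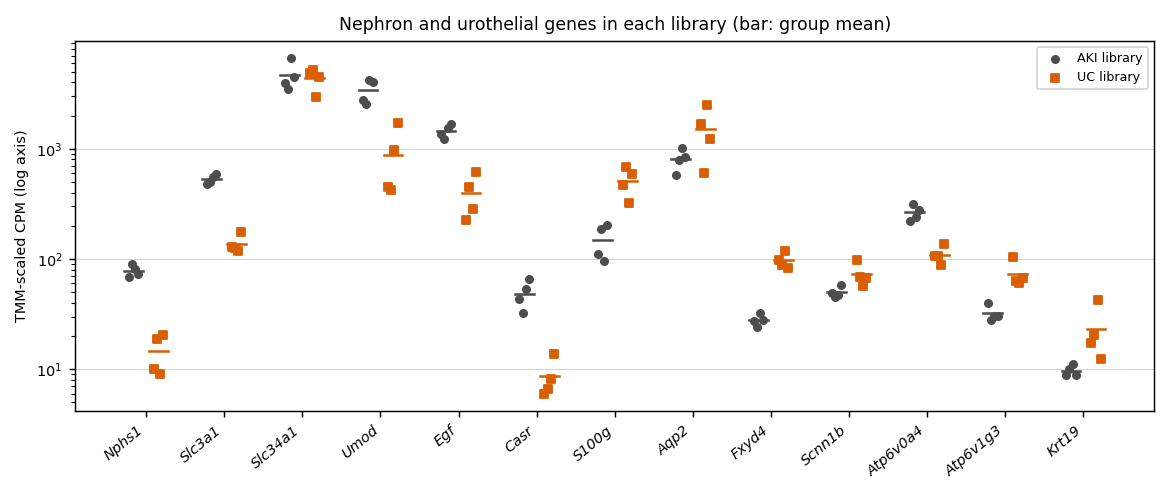
Level of 13 genes of podocytes, nephron segments and urothelium in each library, in TMM-scaled CPM on a log axis, with AKI libraries as grey circles, UC libraries as orange squares and group means as bars. Umod, Egf and Casr lie lower in all UC libraries, Fxyd4 and Atp6v1g3 higher, and Slc34a1 and Aqp2 overlap.

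In the glomerulus, 17 of 21 podocyte genes were lower in UC and 1 was higher (median -1.46). Synaptopodin (Synpo), an actin organiser of the foot process, was at 128, 189, 226 and 165 CPM in AKI and 28.3, 32.5, 27.1 and 37.7 CPM in UC (log2 fold change -2.49, SE 0.21, adjusted p = 2.30e-05). Nephrin (Nphs1), the backbone of the slit diaphragm, read 68.5, 91, 80.4 and 72.6 CPM and 10, 18.9, 9.03 and 20.4 CPM (log2 fold change -2.42, SE 0.24, adjusted p = 3.17e-05). The groups did not overlap for either gene. The member that rose was Vegfa, the growth factor by which podocytes maintain their capillaries and which tubule cells also make, at 201, 156, 164 and 131 CPM and 228, 280.4, 174 and 202 CPM (log2 fold change 0.44, SE 0.16, adjusted p = 0.0336). The groups overlapped, and the call was lost without AKI replicate 2, 3 or 4 or UC replicate 1 or 2 (adjusted p 0.0621 to 0.121). Mesangial and renin cell genes were lower for 7 of 13 members and higher for 1, against 24.3% and 24.1% of all genes. Pdgfrb, the receptor that mesangial cells and pericytes need to reach their vessels, fell from 55.6, 123, 135 and 91.2 CPM to 18.2, 16.8, 19.8 and 42.3 CPM (log2 fold change -2.06, SE 0.31, adjusted p = 2.02e-04), with UC replicate 4 above the other UC libraries. Renin (Ren1) was at 53, 67.8, 104 and 98.1 CPM and 26.4, 47.5, 17.1 and 51 CPM (log2 fold change -1.18, SE 0.34, adjusted p = 0.0107). Of 9 tested genes of the renin-angiotensin system, 4 fell and none rose, beside the same 24.3% and 24.1% of all genes. Apart from Ren1, those that fell were the converting enzyme Ace (378 ± 146 and 233 ± 20.2 CPM, a call lost without AKI replicate 3 or 4 or UC replicate 1 or 3), the receptor Agtr1a (44.6 ± 4.06 and 19.9 ± 3.78 CPM) and the angiotensin-cleaving enzyme Enpep (134 ± 17.3 and 57.5 ± 12.2 CPM).

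Endothelial genes were lower as a group: 9 of 12 genes of glomerular endothelium and 19 of 24 genes of endothelium in general fell, and 1 of the latter rose. Kdr, the main VEGF receptor, was at 65.7, 97.4, 114 and 79.9 CPM in AKI and 5.61, 7.86, 7.04 and 13.3 CPM in UC (log2 fold change -3.40, SE 0.27, adjusted p = 1.57e-05). Flt1, the decoy VEGF receptor, read 73.5, 117, 104 and 77.4 CPM and 11.8, 14, 18.7 and 22.5 CPM (log2 fold change -2.46, SE 0.21, adjusted p = 2.34e-05). Cyyr1, a membrane protein gene of endothelium, was low in both groups, at 11.2, 14.7, 11.2 and 8.40 CPM and 0.748, 0.86, 1.10 and 1.73 CPM (log2 fold change -3.33, SE 0.31, adjusted p = 2.58e-05). Lipoprotein lipase (Lpl), which acts on the capillary surface and is made by several cell types, overlapped between the groups, with 524 ± 105 and 579 ± 52.2 CPM (adjusted p = 0.52). The 1 endothelial gene that rose, Sox17, a transcription factor of arterial endothelium, had a log2 fold change of 0.81; like Lama5 and Polr2b further on, it is named because it ran against its list, after its values were seen. Of 16 genes of vascular smooth muscle and pericytes, 12 fell and 1 rose; the myosin kinase Mylk went from 109, 146, 159 and 114 CPM to 52.2, 60.4, 58.8 and 59.1 CPM (log2 fold change -1.20, SE 0.14, adjusted p = 4.77e-05). Notch3, the Notch receptor of mural cells, went from 62 ± 17.8 to 21.4 ± 4.93 CPM (adjusted p = 7.31e-05).

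The fibroblast list had the lowest median of these cell types (-2.27), with 13 of 15 tested genes lower and none higher. Decorin (Dcn), a proteoglycan that binds collagen fibrils, was at 58.7, 111, 65.3 and 77.8 CPM in AKI and 15.6, 9.15, 10.6 and 17.8 CPM in UC (log2 fold change -2.55, SE 0.25, adjusted p = 3.13e-05). Fibulin 5 (Fbln5), an elastic fibre organiser, read 129, 258, 366 and 250.3 CPM and 43.7, 37, 24.4 and 48.4 CPM (log2 fold change -2.71, SE 0.30, adjusted p = 4.21e-05). Collagen I chain Col1a2, the main fibrillar collagen of scar, was at 76.7, 153, 214 and 157 CPM and 28.1, 20.9, 20.2 and 46.4 CPM (log2 fold change -2.38, SE 0.30, adjusted p = 7.55e-05). In AKI these genes ran lowest in replicate 1, which was still above every UC library. Basement membrane genes fell for 15 of 20 members and rose for 1, Lama5 (log2 fold change 0.49), a laminin chain of the glomerular basement membrane. Nidogen 1 (Nid1), the link between laminin and collagen IV, was at 62, 121, 143 and 84.8 CPM and 23.3, 13.1, 12.9 and 21.8 CPM (log2 fold change -2.53, SE 0.27, adjusted p = 3.52e-05). Of 22 matrix remodelling enzymes and inhibitors, 17 fell and none rose, among them the collagenase inhibitor Timp3, from 768, 1015, 935 and 827 CPM to 227, 219, 180.3 and 291 CPM (log2 fold change -1.95, SE 0.26, adjusted p = 8.69e-05). The elastin crosslinker Loxl1 fell from 47.4 ± 20.1 to 7.07 ± 3.43 CPM (adjusted p = 7.06e-05).

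Of 10 surface markers used to define mesenchymal stem cells, none rose and 4 fell, against 24.1% and 24.3% of all genes. Those that fell included endoglin (Eng), which endothelium also expresses, at 334 ± 89.2 and 96.4 ± 35.9 CPM, and the integrin chain Itgb1 at 278 ± 21.3 and 172 ± 18.9 CPM. Counts were assigned to mouse genes, and reads of another species were not measured. Fat cell genes were lower for 7 of 13 tested members (4 without AKI replicate 3), against 24.3% of all genes. The defining marker adiponectin (Adipoq) was at 6.45, 1.87, 7.58 and 5.34 CPM in AKI and 0.249, 0.184, 1.63 and 0.866 CPM in UC (log2 fold change -2.79, SE 0.66, adjusted p = 0.00384). For this gene every AKI library was above every UC library. The median of log2(CPM + 0.5) over the list's members, relative to each gene's mean, was 0.09 in AKI replicate 2 and 0.14 in UC replicate 3, so for the list the groups overlapped. The part of perirenal fat in the other AKI values was not tested.

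Of 18 tested macrophage genes 6 fell and 1 rose, against 24.3% and 24.1% of all genes. Without UC replicate 4, 11 fell. Mertk, a receptor for the uptake of dead cells, was at 54.4, 64.5, 56.2 and 52 CPM in AKI and 21.5, 25.2, 14.2 and 22.2 CPM in UC (log2 fold change -1.45, SE 0.16, adjusted p = 3.79e-05). Cd14, the co-receptor for bacterial endotoxin, overlapped at 61.9, 118, 42.4 and 95.3 CPM and 269, 65.8, 225 and 104 CPM (adjusted p = 0.0938), with UC replicates 1 and 3 the highest. None of 9 tested genes of MHC class II antigen presentation passed. The invariant chain Cd74 was at 64.3, 133, 203 and 363 CPM and 131, 44.6, 129 and 145 CPM (log2 fold change -0.76, adjusted p = 0.166), and H2-Eb1, a class II beta chain, spread from 2.15 to 115 CPM over the 8 libraries (adjusted p = 0.188). Both groups overlapped for these genes. Among 23 complement genes 9 fell and 2 rose, beside the same 24.3% and 24.1% of all genes. Complement factor B (Cfb), a protease of the alternative pathway, was at 14.4, 12.5, 19.4 and 15.1 CPM and 2.62, 1.29, 0.749 and 2.60 CPM (log2 fold change -3.09, SE 0.49, adjusted p = 2.85e-04). The C1 inhibitor Serping1 was at 76.9, 172, 158 and 124 CPM and 32.8, 20.9, 39.5 and 58.2 CPM (log2 fold change -1.80, SE 0.29, adjusted p = 3.14e-04). Cd59a, which blocks the membrane attack complex, was higher, at 36.2 ± 4.58 and 57.7 ± 6.59 CPM (adjusted p = 8.71e-04). Of 24 tested chemokine and NF-kappaB genes, 7 fell and 2 rose, shares near or below those over all genes. The chemokine Cx3cl1 read 109, 183, 214 and 159.9 CPM and 60.9, 38, 66.5 and 72.5 CPM (log2 fold change -1.48, SE 0.21, adjusted p = 1.36e-04). Interferon-stimulated genes had 8 of 30 lower and 2 higher, with the lower share near that of all genes, and without AKI replicate 2 only 3 were lower.

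Of 32 genes of TGF-beta and BMP signalling, 22 fell and none rose (median -0.91). Ltbp4, which stores TGF-beta in the matrix, was at 65.1, 95.8, 191 and 110.3 CPM in AKI and 25.9, 21.9, 19.1 and 30.5 CPM in UC (log2 fold change -2.25, SE 0.27, adjusted p = 5.53e-05). Smad3, a transducer of the receptor signal, read 67.9, 74.5, 95.5 and 80.8 CPM and 39.6, 44, 42.9 and 45.7 CPM (log2 fold change -0.89, SE 0.11, adjusted p = 5.84e-05). Smad7, the feedback inhibitor that Smad3 induces, fell with it, at 55.5, 58.9, 56.7 and 61.5 CPM and 20.1, 26.8, 30.5 and 32.8 CPM (log2 fold change -1.08, SE 0.14, adjusted p = 8.99e-05). In the Hippo pathway and the targets of its effector YAP, 16 of 20 genes fell and none rose; Crim1, a membrane protein that binds growth factors, was at 145, 135, 99.2 and 115 CPM and 35.5, 42.6, 43.7 and 46.5 CPM (log2 fold change -1.55, SE 0.16, adjusted p = 3.43e-05). Notch genes showed 7 of 15 lower and none higher, against 24.3% and 24.1% of all genes. The receptor Notch1 was at 39.6, 54, 49.1 and 39.7 CPM and 13.5, 10.6, 12 and 14.2 CPM (log2 fold change -1.85, SE 0.14, adjusted p = 1.34e-05). The insulin-like growth factor axis had 9 of 17 lower and none higher, beside the same shares of all genes. Igfbp3, a binding protein of endothelium and stroma, was at 277, 514, 630.2 and 366 CPM and 34.3, 37.2, 32.7 and 54 CPM (log2 fold change -3.50, SE 0.25, adjusted p = 1.06e-05). The receptor Igf1r was at 163 ± 15.6 and 95.9 ± 4.29 CPM (adjusted p = 1.35e-04). Of 15 genes of the VEGF and angiopoietin system 8 fell and 1, Vegfa, rose, beside the same shares of all genes. Lists share members, so the counts are not separate results. Kdr and Flt1 were also counted as glomerular endothelium, Igfbp3 and Eng as endothelium in general, Notch3 as mural cells and Vegfa as podocytes. The EGF family and HGF list had 4 of 14 lower and none higher, near the 24.3% of all genes. Many of these genes are also expressed by endothelium, mural cells and fibroblasts, whose markers were lower in the same libraries; the part of those cells in the pathway values was not tested.

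Among oxygen-sensing genes 7 of 19 fell and 2 rose, against 24.3% and 24.1% of all genes. Epas1, the HIF factor of endothelium and interstitium, was at 209.9, 363, 324 and 314 CPM in AKI and 73.7, 92.8, 84.5 and 100.3 CPM in UC (log2 fold change -1.79, SE 0.16, adjusted p = 2.38e-05). Egln1, the prolyl hydroxylase that marks HIF for breakdown, was at 111 ± 9.97 and 71.2 ± 4.03 CPM (adjusted p = 2.31e-04). The clock genes, which depend on the hour of sampling, were lower for 5 of 19 members and higher for 3, shares near or below those over all genes. The repressor Nr1d1 (REV-ERB alpha) was at 66.9, 84.8, 182 and 76 CPM and 11.3, 14.4, 20.1 and 32.1 CPM (log2 fold change -2.39, SE 0.37, adjusted p = 2.37e-04), with AKI replicate 3 far above the rest. The hour of sampling is unstated, and their part was not tested.

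**Figure D3:**
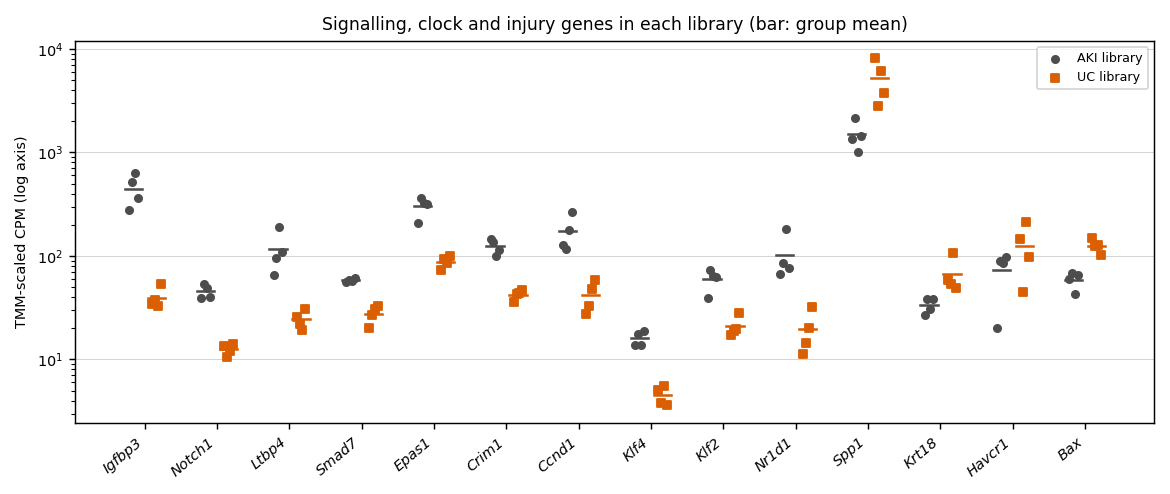
Level of 14 signalling, clock and injury genes in each library, in TMM-scaled CPM on a log axis, with AKI libraries as grey circles, UC libraries as orange squares and group means as bars. Igfbp3, Notch1, Smad7, Epas1, Ccnd1 and Klf4 lie lower in all UC libraries, Spp1 and Bax higher, and Havcr1 overlaps.

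Immediate early genes, which cells transcribe within minutes of a stimulus, were lower for 13 of 28 tested members and higher for none (median -0.93). Over all genes 24.3% were lower and 24.1% higher. Without AKI replicate 3, AKI replicate 4 or UC replicate 3 the 13 became 7, and without UC replicate 4 they became 6. The transcription factor Klf4 was at 13.9, 17.6, 13.8 and 18.6 CPM in AKI and 5.05, 3.81, 5.50 and 3.61 CPM in UC (log2 fold change -1.83, SE 0.19, adjusted p = 3.27e-05). Klf2, a factor that blood flow induces in endothelium, read 39.6, 72.7, 63.3 and 62.1 CPM and 17.3, 18.9, 19.6 and 28.4 CPM (log2 fold change -1.50, SE 0.19, adjusted p = 7.81e-05). Klf4 and Klf2 were also counted among the lower genes of endothelium in general. The part of endothelium in the values of the immediate early list was not tested. The phosphatase Dusp6, a feedback inhibitor of ERK, was at 81.6 ± 5.71 and 43.6 ± 8.99 CPM (adjusted p = 0.00214). The letters TGACG, the core of the binding motif of CREB factors, are shown in capitals in the 2 promoters below, because these members had the smallest p among those with a match (RefSeq, GRCm38.p6; each sequence is on the gene's strand, and CGTCA is the motif on the other strand).
Klf4, chr4:55532688-55532722, minus strand: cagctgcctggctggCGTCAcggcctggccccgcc
Klf2, chr8:72318812-72318840, plus strand: ctggtttgtTGACGccgtcgccataggga
TGACG on either strand, in the 250 bases before to 50 bases after the listed start, occurred in 12 of 23 immediate early promoters with an entry (52.2%), in 5681 of 27025 promoters of all genes (21.0%), and in 30 of 59 promoters of cytosolic ribosomal proteins (50.8%), whose genes were higher in UC. The full palindrome TGACGTCA, which includes TGACG, was found in 2 of the 23 (8.70%, against 1.88% of all promoters), and the serum response motif, the CArG box, also in 2 (8.70%, against 1.57%). These matches are a description of the letters and were not tested.

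Injury markers of the tubule did not move as one. Of 23 tested genes, 4 rose and 2 fell, both less than the shares over all genes (24.1% and 24.3%). Osteopontin (Spp1), a matrix protein that injured tubules secrete, was at 1344, 2174, 1015 and 1445 CPM in AKI and 8155, 2823, 6117 and 3745 CPM in UC (log2 fold change 1.80, SE 0.36, adjusted p = 0.0014). Every UC library was above every AKI library. Keratin 18 (Krt18), a filament protein of stressed epithelium, read 27, 38.2, 30.7 and 38.5 CPM and 58.2, 53.3, 107 and 49.4 CPM (log2 fold change 1.0, SE 0.22, adjusted p = 0.0022). The fibrinogen chain Fgg was at 1.88, 3.36, 5.27 and 9.18 CPM and 10.7, 16, 43.7 and 5.87 CPM (log2 fold change 1.96, SE 0.72, adjusted p = 0.0382). The call of Fgg was lost without AKI replicate 1, 2 or 3 or UC replicate 2 or 3 (adjusted p 0.0537 to 0.181). Kidney injury molecule 1 (Havcr1), the marker used most in rodents, overlapped at 20.2, 88.7, 84.8 and 98.1 CPM and 147, 44.8, 214 and 96.9 CPM (log2 fold change 0.78, adjusted p = 0.397), with AKI replicate 1 the lowest of all. Lipocalin 2 (Lcn2), a marker of distal tubule injury, overlapped too, at 14.6, 75, 17.7 and 36.8 CPM and 79.5, 18.1, 208 and 47.1 CPM (adjusted p = 0.137). Timp2, a metalloproteinase inhibitor used as a urinary marker of cell cycle arrest, fell from 113, 182, 196 and 147 CPM to 35.1, 37.8, 57.1 and 86.6 CPM (log2 fold change -1.55, SE 0.26, adjusted p = 3.59e-04).

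In the lists of p53 targets, cell death, the cell cycle, DNA repair and cisplatin handling, the share in each direction was near or below that over all genes. Of 30 p53 targets, 5 rose and 3 fell. Bax, which opens the mitochondrial membrane in cell death, was at 59.8, 68.1, 42.7 and 65 CPM in AKI and 148, 124, 126 and 103 CPM in UC (log2 fold change 1.09, SE 0.21, adjusted p = 8.87e-04). Among 28 cell death genes 6 rose and 3 fell; caspase 9 (Casp9), which acts downstream of Bax, was lower, at 40.5 ± 2.54 and 24.5 ± 1.91 CPM (adjusted p = 1.17e-04). The lipid peroxide reductase Gpx4, which protects from ferroptosis, was higher, at 571, 654, 733 and 738 CPM and 1527, 1618, 1238 and 1127 CPM (log2 fold change 1.03, SE 0.17, adjusted p = 3.65e-04). The cell cycle list had 7 of 32 genes lower and 1 higher. Cyclin D1 (Ccnd1), which drives entry into the cycle, was at 128, 115, 179 and 268 CPM and 27.4, 32.7, 47.7 and 58.2 CPM (log2 fold change -2.05, SE 0.30, adjusted p = 1.70e-04). Birc5 (survivin), a gene of dividing cells, was low in both groups and higher in UC, at 0.625, 0.992, 1.13 and 1.0 CPM and 2.06, 3.99, 4.05 and 2.65 CPM (log2 fold change 1.76, SE 0.30, adjusted p = 4.31e-04). Genes for repair of crosslinks and bulky DNA lesions, the damage that cisplatin makes, split evenly with 6 of 29 higher and 6 lower, but only 2 were higher without AKI replicate 3 or UC replicate 1 and 3 without AKI replicate 4 or UC replicate 2; the lesion sensor partner Rad23b was at 97.8 ± 5.21 and 53.9 ± 4.81 CPM (adjusted p = 1.11e-04). Of 16 tested genes that carry, activate or bind cisplatin, 4 fell and 2 rose. The copper pump Atp7a, which exports cisplatin from cells, read 14.1, 13.9, 11.8 and 9.68 CPM and 2.80, 3.50, 4.76 and 3.66 CPM (log2 fold change -1.74, SE 0.30, adjusted p = 4.91e-04). The dipeptidase Dpep1, an enzyme of the pathway that turns cisplatin conjugates into a toxin, was at 122, 148, 219.7 and 232 CPM and 112, 72.8, 42.9 and 88.9 CPM (log2 fold change -1.19, SE 0.30, adjusted p = 0.0055). The uptake transporter Slc22a2 (OCT2) overlapped, at 216 ± 55.2 and 226 ± 53 CPM (adjusted p = 0.806). Metallothionein 1 (Mt1) was higher, at 198, 321, 157 and 236 CPM and 467, 309, 395 and 262 CPM (log2 fold change 0.65, SE 0.24, adjusted p = 0.0359), with overlap and with its call lost without AKI replicate 1, 3 or 4 or UC replicate 1 or 3 (adjusted p 0.0655 to 0.116).

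Lists of mitochondrial genes moved in different directions and also differed in listed length. Median lengths were 784 bases for mitochondrially encoded genes, 1569 for complex I subunits and 1869.5 for complexes II to V. They were 2533 bases for mitochondrial ribosomal proteins, 3040 for import, 3930 for the tricarboxylic acid cycle and 3498 for fatty acid oxidation. Counts with an offset for gene length are given further on. Of 13 protein-coding genes of the mitochondrial genome 12 rose and none fell (median 2.16). The complex I gene mt-Nd6, the one encoded on the other strand, was at 1517, 1076, 712 and 752 CPM in AKI and 6239.8, 6558, 2984 and 2403 CPM in UC (log2 fold change 2.16, SE 0.38, adjusted p = 5.52e-04). Among nuclear genes, 30 of 37 complex I subunits rose and 1 fell (median 0.82). For complexes II to V, 28 of 40 rose and 3 fell (0.67). That list held 55 symbols, because some of the 40 genes were listed under both an older and a newer name. Of 77 mitochondrial ribosomal proteins, 52 rose and 1 fell (0.52). Mrpl33 was at 21.7, 19.4, 14.4 and 17.4 CPM and 68.6, 59.2, 63.3 and 43.3 CPM (log2 fold change 1.69, SE 0.18, adjusted p = 3.48e-05). Mrps14 was at 32.5, 34.7, 35.2 and 33.2 CPM and 62, 63.8, 60.9 and 53.6 CPM (log2 fold change 0.83, SE 0.09, adjusted p = 4.24e-05). Neither gene's groups overlapped. Import genes rose for 18 of 25 members and fell for 3. Those that rose included the small receptor-complex subunit Tomm7, at 35.9, 36.8, 41.8 and 39.2 CPM and 77.2, 90.3, 72 and 64.7 CPM (log2 fold change 0.98, SE 0.13, adjusted p = 8.80e-05). Matrix fuel pathways did not follow. Of 27 genes of the tricarboxylic acid cycle and pyruvate entry, 9 fell and 2 rose, against 24.3% and 24.1% of all genes. The pyruvate dehydrogenase subunit Pdha1 was at 256, 266, 240.1 and 264 CPM and 114, 121, 115 and 163 CPM (log2 fold change -1.0, SE 0.15, adjusted p = 2.15e-04). Of 32 fatty acid oxidation genes 12 fell and 2 rose, beside the same 24.3% and 24.1% of all genes. Ppara, the receptor that switches the pathway on, fell from 52.8, 58.5, 37.7 and 37.2 CPM to 11.6, 10.3, 7.0 and 7.70 CPM (log2 fold change -2.35, SE 0.27, adjusted p = 4.33e-05). Etfb, an electron carrier of the same pathway, rose from 44.9, 65.4, 57 and 60.4 CPM to 223, 243, 172 and 142 CPM (log2 fold change 1.77, SE 0.24, adjusted p = 1.03e-04).

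Heat shock proteins are the other theme of the study's title. Of 35 tested chaperones and regulators 5 rose and 8 fell, neither a larger share than over all genes, and without AKI replicate 2 or UC replicate 2 5 fell. Ptges3 (p23), a co-chaperone of Hsp90, was at 62.2, 53.4, 47.7 and 43.1 CPM in AKI and 121, 106, 118 and 89.9 CPM in UC (log2 fold change 1.07, SE 0.13, adjusted p = 5.27e-05). Hspe1, the lid of the mitochondrial chaperonin, read 94.6, 90.5, 122 and 91.9 CPM and 174, 202, 159 and 146 CPM (log2 fold change 0.77, SE 0.14, adjusted p = 8.17e-04). Hspa12a, a distant member of the Hsp70 family, was lower, at 30.8, 37.3, 42.2 and 31.6 CPM and 11.5, 16.9, 11.4 and 23.6 CPM (log2 fold change -1.16, SE 0.21, adjusted p = 6.98e-04). The constitutive chaperone Hspa8, the most abundant of the list, was at 903, 969, 1546 and 1113 CPM and 1619, 1399, 1169 and 1137 CPM (adjusted p = 0.336). In the endoplasmic reticulum, 11 of 29 chaperone and stress genes fell and 3 rose, against 24.3% and 24.1% of all genes. Edem1, which sends misfolded proteins to breakdown, was at 109, 106, 102 and 116 CPM and 48, 50.5, 57.9 and 57.8 CPM (log2 fold change -1.02, SE 0.10, adjusted p = 3.37e-05). The stress sensor Ern1 (IRE1) was at 34.3 ± 1.31 and 16.3 ± 2.47 CPM (adjusted p = 7.68e-05).

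Cholesterol synthesis genes were lower for 11 of 24 members and higher for 2, against 24.3% and 24.1% of all genes. Glutathione and NRF2 genes were higher for 9 of 29 tested members and lower for 2, shares near or below those over all genes. Gpx1, the main cytosolic glutathione peroxidase, was at 104, 123, 108 and 109.8 CPM and 688, 517, 382 and 352 CPM (log2 fold change 2.12, SE 0.21, adjusted p = 2.90e-05), and superoxide dismutase 1 (Sod1) at 358, 358, 440.4 and 403 CPM and 981, 1016, 709 and 768 CPM (log2 fold change 1.16, SE 0.17, adjusted p = 1.79e-04). Thioredoxin (Txn1) was at 118 ± 9.82 and 227 ± 34 CPM (adjusted p = 1.78e-04). Gpx3, the plasma peroxidase that the kidney secretes and the most abundant gene of this list, overlapped at 35843 ± 4524 and 38768 ± 9465 CPM (adjusted p = 0.723). The phase I enzymes of the cytochrome P450 family showed 5 of 21 lower, near the 24.3% of all genes, and none higher; Cyp1b1, a vascular and stromal member, was at 38.7, 65.1, 35 and 29.1 CPM and 5.67, 2.70, 3.74 and 7.51 CPM (log2 fold change -3.09, SE 0.36, adjusted p = 4.70e-05).

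**Figure D4:**
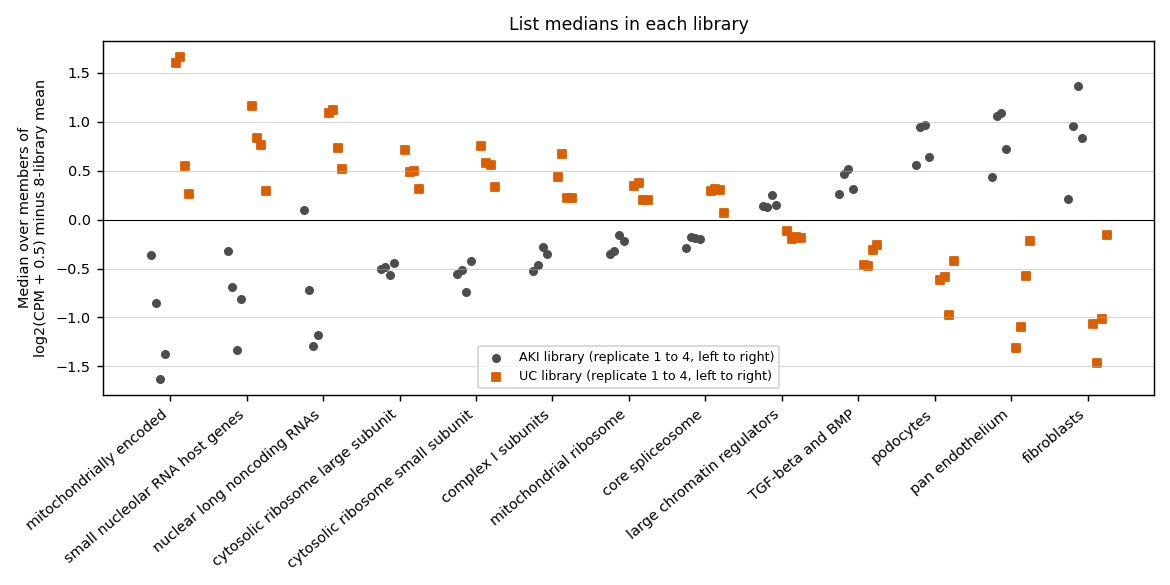
Median over each list's tested members of log2(CPM + 0.5) minus the gene's mean over the 8 libraries, for each library, with AKI libraries as grey circles and UC libraries as orange squares. For mitochondrially encoded genes UC replicates 1 and 2 stand above UC replicates 3 and 4; for podocytes, endothelium and fibroblasts all UC libraries lie below all AKI libraries.

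Ribosomal protein genes rose with few exceptions. Of 47 large and 33 small subunit proteins of the cytosolic ribosome, 42 and 30 rose and none fell (medians 1.08 and 1.14). Rps24 was at 204, 194, 144 and 199 CPM in AKI and 648, 495, 564 and 454 CPM in UC (log2 fold change 1.54, SE 0.15, adjusted p = 2.58e-05). Rpl23 was at 149.9, 147, 121 and 152 CPM and 484, 399, 406 and 325 CPM (log2 fold change 1.5, SE 0.15, adjusted p = 3.17e-05). Ribosomal protein genes have many processed copies in the genome, and the authors' counting may split reads between them, so single values are uncertain. Most of these genes in mammals start at an oligopyrimidine tract that ties their translation to growth signals. The stretch from 60 bases before to 20 after the listed start is shown for the 4 members with the smallest p that have an entry (RefSeq, GRCm38.p6), with a C/T run of 8 or more within 20 bases of the start in capitals.
Rps24, chr14:24490618-24490697, plus strand: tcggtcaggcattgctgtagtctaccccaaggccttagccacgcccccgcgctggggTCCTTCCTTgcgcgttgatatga
Rpl23, chr11:97782420-97782499, minus strand: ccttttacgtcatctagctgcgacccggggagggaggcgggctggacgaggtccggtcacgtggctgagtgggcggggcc
Rps23, chr13:90923062-90923141, plus strand: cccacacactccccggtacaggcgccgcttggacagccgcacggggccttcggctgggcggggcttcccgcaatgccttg
Rpl36a, chrX:134585594-134585673, plus strand: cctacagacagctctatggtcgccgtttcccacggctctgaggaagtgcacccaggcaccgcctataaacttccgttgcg
Such a run, anywhere in that window on either side of the start, was present in 28 of 59 ribosomal protein promoters (47.5%) and in 15.9% of all promoters. It did not have to begin at the start, so these are not shares of genes that start at an oligopyrimidine tract. Within 50 bases, a window chosen after these sequences were seen, the shares were 81.4% and 35.7%. The last 2 genes shown had 208 ± 29.5 and 537 ± 66.6 CPM (Rps23) and 67.8 ± 10.2 and 184 ± 25.1 CPM (Rpl36a).

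Of the 12 subunits of RNA polymerase II, 10 rose and 2 fell. The largest subunit Polr2a, which carries the catalytic centre and the C-terminal tail, fell from 145, 163, 179 and 173 CPM to 80.9, 91.5, 79.2 and 76.1 CPM (log2 fold change -1.01, SE 0.10, adjusted p = 2.90e-05), and the second largest, Polr2b, had a log2 fold change of -0.51. The small shared subunit Polr2l rose from 51.4, 55.8, 57.6 and 59.6 CPM to 155, 136, 144 and 91.2 CPM (log2 fold change 1.23, SE 0.16, adjusted p = 8.28e-05). Listed gene lengths were 4667 and 7067 bases for the subunits that fell, and 624 to 5256 bases, with a median of 1378, for those that rose, so the ranges overlapped. In the core spliceosome 20 of 35 genes rose and 6 fell, with listed lengths of 792 to 11370 and 2162 to 10919 bases. Lsm7, a ring protein of U6 RNA, was at 10.7, 10.7, 12.1 and 10.7 CPM and 32.3, 37.2, 32.3 and 27.8 CPM (log2 fold change 1.55, SE 0.16, adjusted p = 3.52e-05). Prpf8, the scaffold at the catalytic core, was at 211, 219, 282 and 244 CPM and 102, 99, 113 and 124 CPM (log2 fold change -1.13, SE 0.12, adjusted p = 3.53e-05). Of 37 proteasome genes 14 rose and 3 fell, against 24.1% and 24.3% of all genes. The catalytic core gene Psmb6 read 133 ± 11.9 and 242 ± 38.7 CPM and the large regulatory subunit Psmd1 72.3 ± 8.35 and 32.5 ± 3.06 CPM. Large chromatin regulators, with a median listed length of 12706 bases, fell for 13 of 20 members and rose for none, such as the corepressor Ncor1 at 165, 164, 156 and 162 CPM and 88, 80.5, 88.4 and 90.9 CPM (log2 fold change -0.89, SE 0.10, adjusted p = 4.18e-05).

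Length and direction went together among protein-coding genes. The nuclear long noncoding RNAs described below ran the other way, with a median listed length of 13239 bases and 7 of 9 tested genes higher. Protein-coding genes were put into 5 classes of equal size by listed length. In the class of the shortest genes, 36.4% rose and 10.8% fell (median 0.32). In the class of the longest genes 12% rose and 41.9% fell (median -0.28), and the classes between followed in order. The shortest class over all tested genes took 20.2 ± 0.995% of counts in AKI and 33.7 ± 5.45% in UC (SD, n = 4 each, exact permutation p = 0.0286, adjusted 0.05). Without the mitochondrially encoded genes, the shares were 16.03 ± 0.668% and 22.9 ± 1.73% (exact permutation p = 0.0286, adjusted 0.1), so the difference dropped from 13.5 to 6.82 percentage points. With an offset per library for gene length, 22 of the 32 TGF-beta and BMP genes and 16 of the 21 podocyte genes were lower, and 14 of the 15 small nucleolar RNA host genes were higher. Of the cytosolic ribosomal proteins 37 of 47 and 27 of 33 were higher with it, and of the mitochondrial ones 35 higher and 4 lower. RNA polymerase II had 8 subunits higher and 2 lower. Of the mitochondrially encoded genes 11 of 13 were higher with the offset. Among nuclear genes, 22 of 37 complex I subunits were higher and none lower. Complexes II to V had 21 of 40 higher and 4 lower, and import 16 of 25 higher and 2 lower. The tricarboxylic acid cycle had 1 of 27 genes higher and 8 lower, and fatty acid oxidation 1 of 32 higher and 11 lower. The large chromatin regulators changed from none higher and 13 lower to 3 higher and 4 lower, and 8 in place of 14 proteasome genes were higher. Why length and group moved together was not tested.

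**Figure D5:**
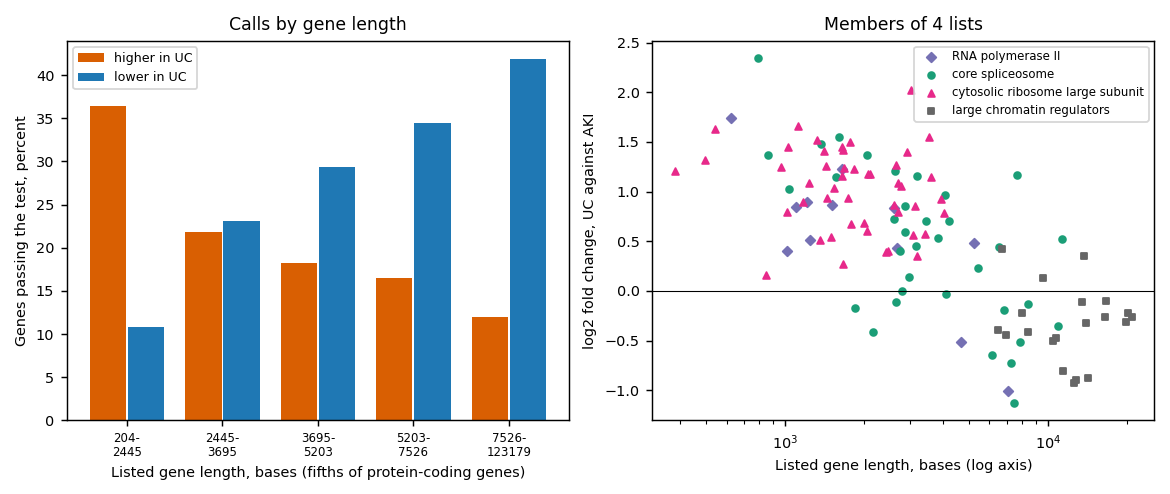
Left, percent of protein-coding genes that passed the test and were higher (orange) or lower (blue) in UC, in 5 classes of listed gene length in bases. Right, log2 fold change of UC against AKI against listed gene length (log axis) for the members of 4 lists. The share of higher genes drops from 36.4% in the shortest class to 12% in the longest, and Polr2a and Polr2b are the only polymerase II subunits below 0.

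UC replicates 1 and 2 had the highest mitochondrial shares, and the test was repeated without them. Without both, 7 of 13 mitochondrially encoded genes were higher (median 1.41), 5 of 20 tight junction genes, 4 of 24 cholesterol genes, 3 of 32 cell cycle genes, 2 of 30 interferon-stimulated genes, 3 of 18 macrophage genes, 3 of 13 fat cell genes, 3 of 35 heat shock genes, 7 of 29 endoplasmic reticulum genes, 7 of 20 large chromatin regulators and 4 of 19 oxygen-sensing genes were lower, and 3 intercalated cell genes, 2 p53 targets, 2 DNA repair genes and 9 proteasome genes were higher. Counts that moved little were those of podocytes (15 lower), endothelium (17 lower of 24), TGF-beta and BMP (17 lower), the Hippo list (14 lower), fatty acid oxidation (13 lower), complex I (26 higher) and the cytosolic ribosome (38 and 30 higher). With 2 UC libraries the test has fewer samples, so a lower count does not show a smaller difference.

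Noncoding genes passed far more often as higher than as lower. Of 1591 tested long noncoding RNA genes 694 rose (43.6%) and 39 fell (2.45%), with a median of 0.89, against 21.0% and 27.9% of 14172 protein-coding genes. Of 15 tested host genes of small nucleolar RNAs, whose introns carry the guides for ribosomal RNA modification, 14 rose and none fell (median 1.56). Snhg20 was at 15.8, 9.59, 5.19 and 5.90 CPM in AKI and 51.6, 71.6, 50.3 and 44.6 CPM in UC (log2 fold change 2.58, SE 0.32, adjusted p = 6.80e-05). Among 9 tested nuclear long noncoding RNAs 7 rose and none fell. Neat1, the scaffold of paraspeckles, read 905, 539, 361 and 311 CPM and 2179, 2277, 2409 and 1854 CPM (log2 fold change 2.04, SE 0.32, adjusted p = 2.71e-04). Xist was at 382, 217, 129.8 and 144 CPM and 862, 845, 530.3 and 447 CPM (log2 fold change 1.62, SE 0.33, adjusted p = 0.0015). Mir22hg and Dleu2, host transcripts of microRNAs, rose too, from 15.5 ± 6.14 to 52.9 ± 17.1 CPM and from 5.35 ± 2.29 to 23.6 ± 6.63 CPM.

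The smallest p values belonged to genes that were lower in UC. Hipk2, a kinase that acts on p53 and Smad3, was at 64.1, 72, 84.6 and 69.6 CPM in AKI and 12, 12, 13.9 and 10.9 CPM in UC (log2 fold change -2.57, SE 0.13, adjusted p = 5.25e-07). Pdpr, the regulator of pyruvate dehydrogenase phosphatase, read 42.1, 45.5, 31.5 and 35.8 CPM and 6.35, 6.02, 5.59 and 6.06 CPM (log2 fold change -2.69, SE 0.20, adjusted p = 1.06e-05). Pdxk, which makes the active form of vitamin B6, was at 107, 148, 129 and 114 CPM and 18.4, 18.4, 17.6 and 26.4 CPM (log2 fold change -2.62, SE 0.19, adjusted p = 1.06e-05). The matrix gene Ecm1 fell from 232, 385, 381 and 299.9 CPM to 51.7, 60.1, 57.7 and 51.9 CPM (log2 fold change -2.55, SE 0.18, adjusted p = 1.06e-05). Among genes that rose, Mtln, which encodes a mitochondrial micropeptide, was even within groups, at 21.5, 22, 21.2 and 21.2 CPM and 44, 50, 41.7 and 44 CPM (log2 fold change 1.06, SE 0.10, adjusted p = 2.58e-05). The small proteasome subunit Sem1 was at 45.7, 34.9, 39 and 40.7 CPM and 118, 129.6, 111 and 97.7 CPM (log2 fold change 1.51, SE 0.14, adjusted p = 2.58e-05). By size, protein-coding genes with at least 50 CPM in the higher group included Col14a1, a fibril-associated collagen, lower at 63.9, 165, 208 and 129 CPM and 19.9, 14.6, 9.99 and 15.5 CPM (log2 fold change -3.24, SE 0.31, adjusted p = 2.64e-05). Rgs11, a G protein regulator, was higher, at 15.4, 9.75, 5.69 and 5.23 CPM and 50.6, 64, 53.7 and 38.4 CPM (log2 fold change 2.52, SE 0.32, adjusted p = 6.91e-05). Gapdh, the glycolytic enzyme often used as a reference, was listed at only 10.7, 7.88, 7.03 and 7.01 CPM in AKI and at 20.4, 439, 224 and 109.8 CPM in UC (log2 fold change 4.6, SE 1.24, adjusted p = 0.00808). It has very many processed copies in the mouse genome among which reads can be split, so its level is uncertain.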

How the data were processed

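Total RNA of kidney was extracted with a kit and sequenced as Illumina libraries, per the labels' protocols; the aligner and strandedness are unstated in the sources used here. The submitters' processing notes name HTSeq, DESeq2 and the build GRCm39 (mm39), without versions. One deposited table holds raw counts for 56748 genes. The authors deposited FPKM values for the same genes in another table; within each library they equal the count per kilobase of listed gene length divided by a constant that differs from the library's count total, so they were rescaled between libraries. Gene lengths and biotypes come from the deposited table.

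The counts of all 12 samples entered a single model in edgeR 4.0.16 (R 4.3.3), with filterByExpr (minimum count 10, minimum total 15), TMM scaling and a quasi-likelihood test on 9 residual degrees of freedom, for the contrast of UC against AKI. The SE was obtained from the log2 fold change and the root of F. Library totals of 17326425 to 23500843 make 3 counts equal to 0.128 to 0.173 CPM, a floor for counting error only. Measures per library were tested by exact permutation (2-sided, scipy 1.17.1), adjusted over 7 measures. Alternatives were DESeq2 1.42.0 and its size factors, other filters, a fit of the 8 AKI and UC samples (16126 genes tested in place of 16947), a replicate block, limma 3.58.1 on log2(FPKM + 1) and log2(FPKM + 0.1), a gene length offset, no mitochondrially encoded genes, thinned counts, and fits without single libraries or without UC replicates 1 and 2.

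The comparison, lists, tests and alternatives were chosen with earlier results of these data known. The rule for named genes takes, per list, the 3 members with the smallest p and the most abundant one, all tested members of 5 lists, and the genes most extreme in p, size or abundance. It reaches 324 genes; which 121 of them were described was decided after their values were seen, and some genes are not reported here. Promoters were matched to RefSeq (GRCm38.p6) by symbol, for 59 of 80 ribosomal and 23 of 28 immediate early genes, and no coordinate was carried between builds.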

Additional observations from a re-analysis of the deposited data

Results flagged for a closer look

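A library stood apart from the other 3 of its group, by Dixon's ratio at the 95% level, in 19 of 256 groups of 4 values, where chance gives about 1 in 20. In AKI, replicate 3 was high for Nr1d1 (182 CPM, others up to 84.8), Hspe1 (122 CPM, up to 94.6) and Lsm7 (12.1 CPM, up to 10.7), and low for Rps24 (144 CPM, others from 194) and Rpl23 (121 CPM, from 147). AKI replicate 1 was low for Havcr1 (20.2 CPM, others from 84.8). AKI replicate 2 was high for Car2 (518 CPM, up to 431) and low for Lpl (367 CPM, from 570.3), and AKI replicate 4 was high for H2-Eb1 (115 CPM, up to 28.4). In UC, replicate 4 was high for Slc3a1 (174 CPM, others up to 127), Pdgfrb (42.3 CPM, up to 19.8), Pdha1 (163 CPM, up to 121) and Pdxk (26.4 CPM, up to 18.4), 4 genes that were lower in UC. UC replicate 1 was high for Atp6v1g3 (104 CPM, up to 67.4) and for the haemoglobin share of counts (0.00344%, up to 0.000261%). UC replicate 2 was low for Cd74 (44.6 CPM, from 129) and high for Slc22a2 (305 CPM, up to 203), and UC replicate 3 was high for Krt18 (107 CPM, up to 58.2) and Upk3a (25.4 CPM, up to 10.5).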

How the results depend on the processing

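No gene called both in the reported test and in any of the 20 alternatives had opposite directions in them. Of the 110 genes described with a call, 104 kept it in every alternative that tested them. The others were Ace, Aqp2, Fgg, Mt1 and Vegfa, whose calls were also lost without single libraries, and Scnn1b, whose call was lost without UC replicates 1 and 2. Among the 104, mt-Nd6 had no value in the fit without mitochondrially encoded genes. The total of 8210 became 8574 with DESeq2, 7382 with the gene length offset (6376 shared) and 7090 to 8443 without single libraries. Without UC replicates 1 and 2, a fit with fewer samples, it was 5414 (5133 shared), of which 2612 were higher in UC. Same-numbered samples showed no shared deviation (correlations of -0.0949 to 0.0646, against -0.215 to 0.267 for samples of unlike number). Whether the samples were paired by design is not given by the labels and cannot be read from these correlations. With a replicate block 7791 genes were called. At 2-fold or more, limma on log2(FPKM + 1), where the pseudocount shrinks changes of low genes, called 1254 genes in place of 3349, 639 higher and 615 lower. Signs turned only for values that had not passed. The log2 fold change of Gpx3 was -0.14 with the length offset, -0.20 without UC replicates 1 and 2, and -0.046 to 0.22 without single libraries. That of Slc22a2 was -0.071, -0.13 and -0.12 to 0.24 in the same order. That of Slc34a1 was -0.22 to 0.13 without single libraries. The difference in haemoglobin share ran from -0.00057 to 0.000542 percentage points without single libraries. Except for these constructions, the cause of each change was not tested.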
